A study of Homo sapiens with 4 samples.

Results

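The aminoacyl-tRNA synthetase genes were taken from the gene tables by symbol: every symbol made of 1 letter followed by ARS, with or without a final 2, and in addition *EPRS*, *FARSA*, *FARSB* and *TARSL2*. This gave 37 genes of the 16708 listed in any library, of which 16, with ARS2 at the end of the symbol, are described here as mitochondrial and the other 21, *TARSL2* included, as cytosolic. *SARS2* was not analysed here. mRNA was measured by RNA-Seq in BEAS2B, a virus-transformed line of human bronchial epithelial cells at passages 15 to 18, in which QKI, an RNA-binding regulator of splicing, was knocked down. The sh-QKI cells stably carried 1 retroviral shRNA against all QKI isoforms, and the sh-Ctrl cells carried the same vector with an shRNA against luciferase, so that each group rests on a single shRNA. There were 2 libraries of sh-QKI cells and 2 of sh-Ctrl cells, numbered replicate 1 and 2 in both groups. Whether the 2 libraries of a group were made from separate cultures is not stated, so that the p-values below rest on the spread among these 4 libraries alone, and this may be technical.

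Aminoacyl-tRNA synthetases attach each amino acid to its own tRNAs, the step at which the genetic code is read. The cytosol and the mitochondrion keep separate sets, all encoded in the nucleus, and the mitochondrial enzymes are imported to translate the few proteins of the respiratory chain that mitochondrial DNA encodes. Several cytosolic enzymes are held together in a multi-synthetase complex by the scaffold proteins AIMP1, AIMP2 and AIMP3 (encoded by *EEF1E1*). *KARS* and *GARS* each make a cytosolic and a mitochondrial enzyme from 1 gene, and are counted as cytosolic here. Many cytosolic synthetase genes are known targets of ATF4, the transcription factor of the amino acid response, which binds together with C/EBP proteins at composite elements.

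The core of this composite element is shown first, as a feature of the cytosolic genes that the choice of members did not use. The letters TGATGCAA, or TTGCATCA on the other strand, were searched in RefSeq promoters of GRCh38.p14, from 250 bases before to 50 after the start of each gene, for the 29 of 37 synthetase genes matched to an entry. The core was found in 6 of 16 cytosolic promoters (37.5%) and in 0 of 13 mitochondrial ones, against 45 of the 9473 promoters of tested genes (0.475%) and 304 of all 35116 promoters in the table (0.866%). A match is a description of the letters and does not show a bound factor. Only exact matches were counted, so a promoter without one may hold a variant of the element or one outside the searched bases. The 6 windows follow, 5′ to 3′ on the strand of the gene, with the core in capitals.
AARS: ttttctcgcagTTGCATCAgccaagttaga
CARS: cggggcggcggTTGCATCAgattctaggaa
IARS: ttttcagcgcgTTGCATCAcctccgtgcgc
MARS: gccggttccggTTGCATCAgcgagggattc
NARS: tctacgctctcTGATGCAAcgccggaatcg
TARS: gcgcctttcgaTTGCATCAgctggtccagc

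In GRCh38.p14 these windows are chr16:70289675-70289704 (*AARS*, minus strand), chr11:3057407-3057436 (*CARS*, minus), chr9:92293692-92293721 (*IARS*, minus), chr12:57488053-57488082 (*MARS*, plus), chr18:57621804-57621833 (*NARS*, minus) and chr5:33440956-33440985 (*TARS*, plus). Given as the distance in bases from the first transcribed base, negative where upstream, the core began at -187 in *AARS*, -13 in *IARS*, -4 in *MARS*, -2 in *CARS*, 3 in *TARS* and 15 in *NARS*. In 5 of the 6 promoters the core thus began within 15 bases of the annotated start, and in *AARS* it began further upstream.

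The deposited values are RPKM, reads scaled to gene length and library total. The length used for each gene is not given with them and need not be that of its mRNA. Levels of different genes are therefore set side by side as RPKM, and their order per length of mRNA may differ. The totals behind the RPKM were 20571555 and 34862008 reads in sh-QKI replicates 1 and 2, and 20052951 and 34706058 reads in sh-Ctrl replicates 1 and 2. Between 15159 and 15587 genes were listed per library. *QKI* itself was at 2.52 and 3.85 RPKM in sh-QKI replicates 1 and 2, against 8.94 and 14.6 RPKM in sh-Ctrl replicates 1 and 2. Both sh-QKI libraries were below both sh-Ctrl libraries, as the labels say. Of 6 epithelial markers, 5 reached 0.5 RPKM in at least 1 library, led by the keratin genes *KRT7*, *KRT8* and *KRT18*, while *CDH1*, which encodes E-cadherin, was at most at 0.181 RPKM. The summed epithelial markers were at 649 and 255 RPKM in sh-QKI replicates 1 and 2, and at 683 and 216 RPKM in sh-Ctrl replicates 1 and 2. None of 3 basal, 3 ciliated or secretory and 3 endothelial markers reached 0.5 RPKM in any library. Of 4 leukocyte markers only *CD14* did (sums 0.799 and 4.84 RPKM in sh-QKI cells, 0.815 and 5.22 RPKM in sh-Ctrl cells), and of 4 fibroblast markers only *COL1A1* did (sums 54.1 and 29.5 RPKM in sh-QKI cells, 51.5 and 18.7 RPKM in sh-Ctrl cells). These sums moved with the replicate number, and their part in the differences between the numbers described below was not tested. In RNA from whole cultures, fewer cells that use a gene and less of its mRNA per cell cannot be told apart.

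All 37 synthetase genes were listed in all 4 libraries and passed the expression limit of a mean of 0.5 RPKM. Reads recovered from the RPKM numbered between 146 and 15951 per gene and library. Over all genes they added up to more than the library totals, so they may hold reads counted more than once. By RPKM, mRNAs of the cytosolic enzymes were the more abundant. Summed over the 21 cytosolic genes, they were at 889 and 659 RPKM in sh-QKI replicates 1 and 2, against 897 and 644 RPKM in sh-Ctrl replicates 1 and 2. The 16 mitochondrial genes summed to 149 and 130 RPKM in sh-QKI replicates 1 and 2, against 137 and 125 RPKM in sh-Ctrl replicates 1 and 2. The cytosolic sum was thus 5.96 and 5.07 times the mitochondrial one in sh-QKI cells, against 6.57 and 5.17 times in sh-Ctrl cells. All 37 genes together took 0.460% and 0.404% of the RPKM in sh-QKI cells, against 0.447% and 0.409% in sh-Ctrl cells.

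**Figure D1:**
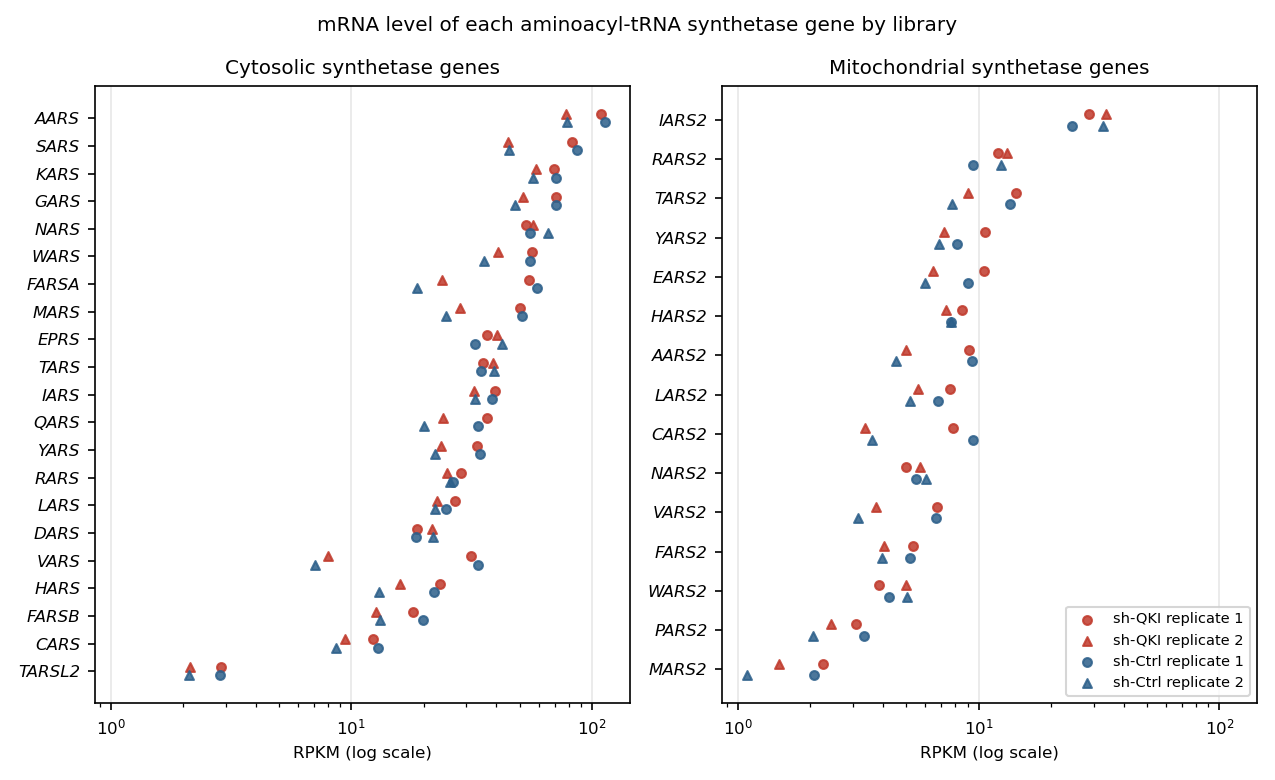
RPKM (log scale) of each cytosolic (left) and mitochondrial (right) synthetase gene, all but 1 of the 37, ordered by the mean over the 4 libraries; red marks are sh-QKI and blue marks sh-Ctrl libraries, circles replicate 1 and triangles replicate 2. For most genes marks of 1 shape lie close together, and *VARS*, at 7.06 to 33.6 RPKM, has its triangles far from its circles.

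*AARS*, which charges alanine, was the most abundant synthetase mRNA in each of the 4 libraries, at 109 and 78.1 RPKM in sh-QKI replicates 1 and 2, against 114 and 78.95 RPKM in sh-Ctrl replicates 1 and 2. The order below it differed between the replicate numbers. *SARS*, the seryl-tRNA synthetase, came next in the libraries numbered 1 and sank below *KARS*, *GARS* and *NARS* in those numbered 2, with 82.3 and 44.8 RPKM in sh-QKI cells, against 86.3 and 45.1 RPKM in sh-Ctrl cells. *KARS*, which charges lysine and belongs to the complex, was at 69.4 and 58.2 RPKM in sh-QKI cells, against 70.6 and 56.7 RPKM in sh-Ctrl cells. In each of these 3 genes the libraries of the groups overlapped, and same-numbered libraries were the closest to each other.

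*GARS*, the glycyl-tRNA synthetase, was at 70.9 and 51.5 RPKM in sh-QKI replicates 1 and 2, against 70.9 and 48.0 RPKM in sh-Ctrl replicates 1 and 2. *NARS*, which charges asparagine, was at 53.1 and 57.0 RPKM in sh-QKI cells, against 55.1 and 65.7 RPKM in sh-Ctrl cells. It was the only one of the 5 most abundant cytosolic genes with a higher RPKM in replicate 2 of both groups, and it was lower in sh-QKI than in sh-Ctrl cells within both numbers, though sh-QKI replicate 2 was above sh-Ctrl replicate 1. At the low end stood *CARS*, which charges cysteine, at 12.2 and 9.43 RPKM in sh-QKI cells, against 12.9 and 8.67 RPKM in sh-Ctrl cells. *TARSL2*, a further threonyl-tRNA synthetase gene beside *TARS*, was the lowest cytosolic gene in every library, at 2.87 and 2.13 RPKM in sh-QKI cells, against 2.86 and 2.11 RPKM in sh-Ctrl cells. For *GARS*, *NARS*, *CARS* and *TARSL2* as well, the ranges of the groups overlapped. The other 14 cytosolic genes had means between 15.9 and 47.0 RPKM.

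Among the mitochondrial enzymes, *IARS2*, which charges isoleucine, was the most abundant in each library, at 28.7 and 33.9 RPKM in sh-QKI replicates 1 and 2, against 24.5 and 32.7 RPKM in sh-Ctrl replicates 1 and 2. *RARS2*, which charges arginine, was at 12.1 and 13.2 RPKM in sh-QKI cells, against 9.42 and 12.4 RPKM in sh-Ctrl cells. Both shared 1 order: sh-QKI replicate 2 was the highest and sh-Ctrl replicate 1 the lowest library, so that sh-QKI exceeded sh-Ctrl within each number while the groups overlapped.

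The lowest of the mitochondrial genes by mean level were *PARS2* and *MARS2*, the prolyl- and methionyl-tRNA synthetases. *PARS2* was at 3.09 and 2.43 RPKM in sh-QKI cells, against 3.34 and 2.05 RPKM in sh-Ctrl cells. *MARS2* was at 2.26 and 1.47 RPKM in sh-QKI cells, against 2.07 and 1.08 RPKM in sh-Ctrl cells. In both genes the libraries numbered 1 were the higher ones, whichever the group. The means of *TARS2*, at 11.1 RPKM, and *WARS2*, at 4.52 RPKM, lay between these ends.

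For 13 amino acids, 1 cytosolic and 1 mitochondrial gene with the same first letter were set side by side, leaving out *TARSL2* and the genes for phenylalanine, glutamate and proline, whose cytosolic enzymes have subunits or are fused. In 12 of these 13 pairs the cytosolic mRNA was the higher one in RPKM in all 4 libraries. This count and the ratios below rest on the gene lengths behind the RPKM, which need not be those of the mRNAs. Per length of mRNA the size of a ratio, and the order within a pair, may differ. The excess in RPKM was greatest for methionine, where *MARS* was 22.1 and 19.1 times as high as *MARS2* in sh-QKI replicates 1 and 2, against 24.8 and 22.7 times in sh-Ctrl replicates 1 and 2. *TARSL2*, unlike *TARS*, was below the mitochondrial *TARS2* (14.3 and 8.99 RPKM in sh-QKI cells, against 13.5 and 7.75 RPKM in sh-Ctrl cells) in every library. Isoleucine was the exception among the 13 pairs: *IARS* was 1.38 and 0.958 times as high as *IARS2* in sh-QKI cells, against 1.57 and 0.998 times in sh-Ctrl cells. For isoleucine the ratio was thus above 1 in the libraries numbered 1 and just below 1 in those numbered 2, in both groups.

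Knockdown of QKI was compared with the control on log2(RPKM + 0.5), a scale that understates the change of genes with low RPKM. Each gene was tested with limma over the 11829 genes at or above the expression limit, and a gene was called at an adjusted p under 0.05. None of the 37 synthetase genes was called, and 0 had an unadjusted p under 0.05. In this fit without a block no gene at all was called (0% of those tested), *QKI* included, and 13 genes had an unadjusted p under 0.05. With the replicate number as a block, 0 of the 37 were called, against 0.854% of all tested genes, 0.49% higher and 0.364% lower in sh-QKI cells. Here *QKI* was lower, with a log2 fold change of -1.72 (SE 0.13, adjusted p = 3.16e-33). The smallest unadjusted p among the synthetase genes in the fit with the block was 0.0877, for *RARS2* (adjusted p = 0.965). Voom on recovered reads called 0 of the 37, with and without the block.

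The intervals of these differences were narrow once the replicate number was in the fit. Over all 37 genes, the 95% intervals with the block ran from -0.44 for *CARS2* to 0.51 for *MARS2* on the log2 scale, that is, from 0.738-fold to 1.43-fold, and each of the 37 held 0. Larger changes in either direction lay outside these intervals, but their spread was shared over all tested genes rather than estimated from each gene alone. With the block, *FARSA*, with differences of -0.11 and 0.33 within replicates 1 and 2, had an SE of 0.115. *TARSL2*, with differences of 0.004 and 0.011, had an SE of 0.149. The intervals thus do not bound the change of a single gene by the spread of its own libraries. Without the block the standard errors of the log2 fold changes ran from 0.25 to 1.01, the largest for *VARS*, and with it from 0.12 to 0.15.

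**Figure D2:**
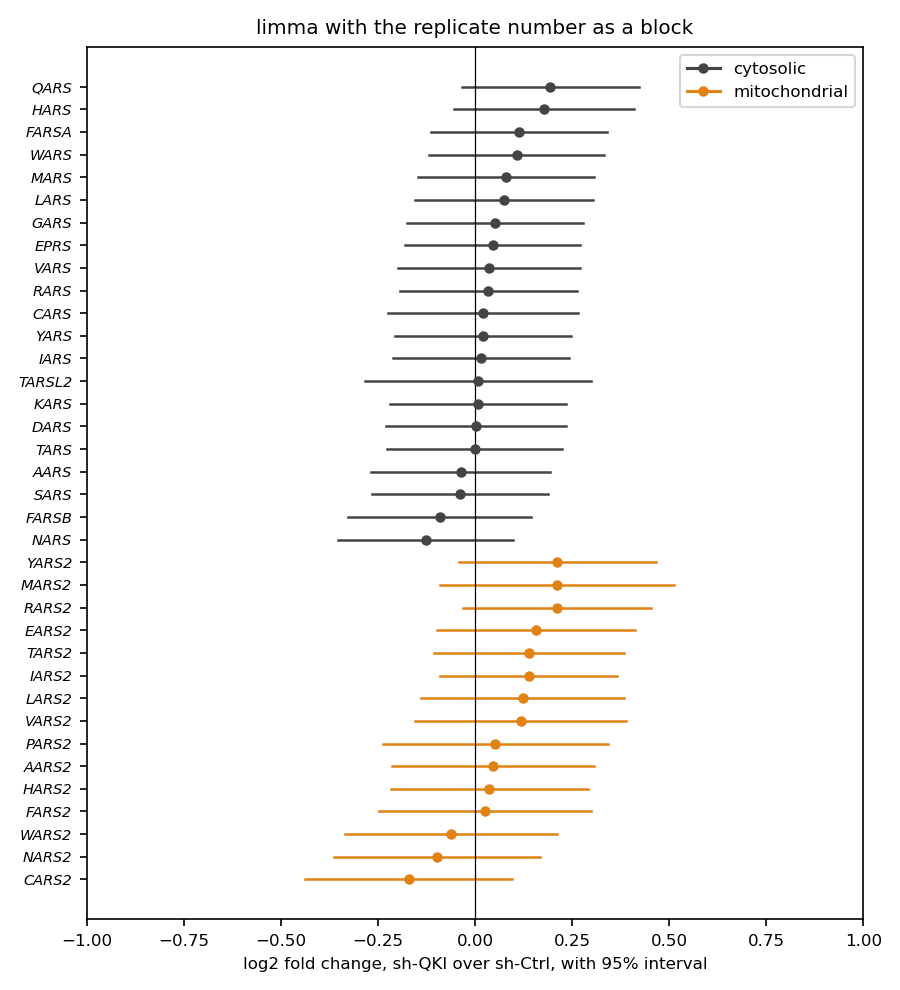
Log2 fold change of each synthetase gene, sh-QKI over sh-Ctrl, with its 95% interval from limma with the replicate number as a block; cytosolic genes are above and mitochondrial genes below, and 1 of the 37 genes is not drawn. Each interval drawn holds 0, and they run from -0.44 to 0.51.

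As groups, the 21 cytosolic genes had a log2 fold change of 0.02 at the median, with 16 of 21 above 0, and the 16 mitochondrial genes one of 0.12, with 13 of 16 above 0. Over all tested genes the median was 0.03 and 62% were above 0. With each library centred on its own median the cytosolic median turned to -0.01 and the mitochondrial one was 0.08. Within replicate 1 the median difference, sh-QKI minus sh-Ctrl, was -0.00 for the cytosolic and 0.09 for the mitochondrial genes, against 0.02 over all tested genes, and the difference was above 0 in 10 of 21 cytosolic and 11 of 16 mitochondrial genes, against 54.5% of all tested genes. Within replicate 2 the medians were 0.04 and 0.07, against 0.05, and the difference was above 0 in 12 of 21 and 12 of 16 genes, against 60.6%. The difference over all tested genes had an SD of 0.20 within replicate 1 and 0.21 within replicate 2, and whether the medians of the 2 groups of genes differ from that of the other genes was not tested. On summed RPKM, sh-QKI was at 0.991 and 1.02 times sh-Ctrl within replicates 1 and 2 for the cytosolic genes, and at 1.09 and 1.04 times for the mitochondrial genes.

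The sign of the difference was the same within both numbers in 22 of the 37 genes. It was higher in sh-QKI cells within both numbers in 15 genes, 5 cytosolic and 10 mitochondrial, against 31.7% of all tested genes, and lower within both in 7, 4 cytosolic and 3 mitochondrial, against 16.6%. The signs were opposite in 12 cytosolic and 3 mitochondrial genes, against 51.7% of all tested genes. By compartment, 10 of 16 mitochondrial genes (62.5%) and 5 of 21 cytosolic genes (23.8%) were higher in sh-QKI cells within both numbers, and neither share was tested against the 31.7% of all tested genes. The share of cytosolic genes with opposite signs, 57.1%, was near that of all tested genes. None of the 37 genes differed by 0.2 or more with 1 sign within both numbers, against 5.28% of all tested genes. For none of the 37 were both sh-QKI libraries above or below both sh-Ctrl libraries, against 5.71% and 2.89% of all tested genes.

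**Figure D3:**
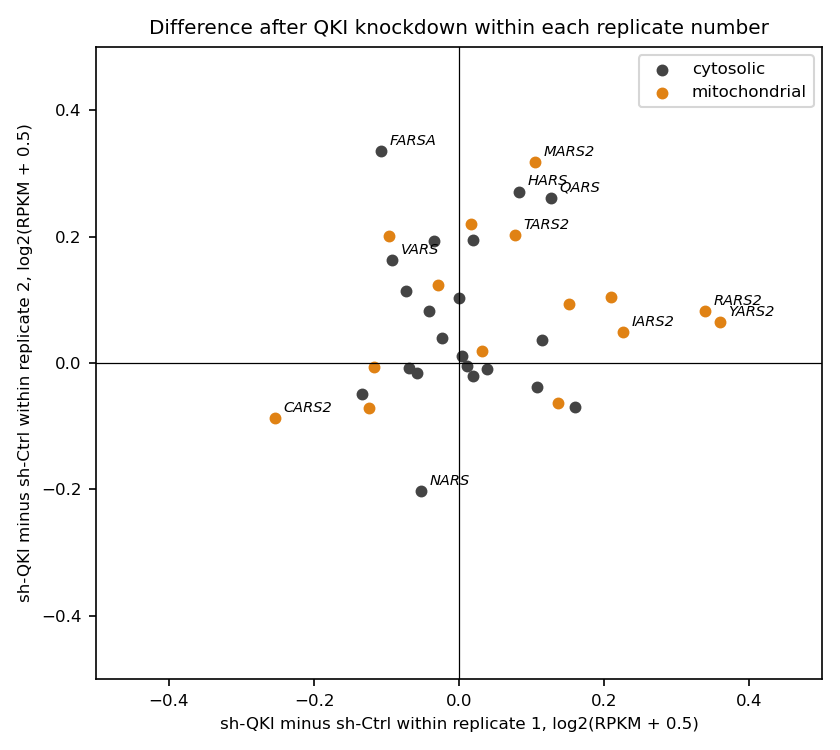
Difference of each synthetase gene, sh-QKI minus sh-Ctrl on log2(RPKM + 0.5), within replicate 1 (horizontal) and within replicate 2 (vertical), with 1 of the 37 genes not drawn; grey points are cytosolic and orange points mitochondrial genes. *RARS2* and *YARS2* lie to the right, at 0.34 and 0.36 within replicate 1 but 0.08 and 0.07 within replicate 2, and *FARSA* lies at the top left.

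The genes with the largest differences in a single number are described by values, and were chosen after these were seen. *YARS2*, the mitochondrial tyrosyl-tRNA synthetase, was at 10.6 and 7.17 RPKM in sh-QKI replicates 1 and 2, against 8.16 and 6.83 RPKM in sh-Ctrl replicates 1 and 2. Its difference was 0.36 within replicate 1 and 0.07 within replicate 2 (log2 fold change 0.21, SE 0.31, adjusted p = 1.00). *RARS2* had 0.34 and 0.08, *IARS2* 0.23 and 0.05, and *EARS2*, which charges glutamate, 0.21 and 0.10. In these 4 mitochondrial genes the difference of 0.2 or more within replicate 1 was not met within replicate 2. *CARS2*, the mitochondrial cysteinyl-tRNA synthetase, stood on the other side, at 7.84 and 3.37 RPKM in sh-QKI cells, against 9.45 and 3.61 RPKM in sh-Ctrl cells, with differences of -0.25 and -0.09. In all, 6 of the 37 genes differed by 0.2 or more within replicate 1, all 6 mitochondrial, against 26.7% of all tested genes.

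Within replicate 2 a different set stood out, with 8 genes at 0.2 or more, 4 cytosolic and 4 mitochondrial, against 28.1% of all tested genes. *FARSA*, the catalytic subunit of the cytosolic phenylalanyl-tRNA synthetase, was at 54.7 and 23.7 RPKM in sh-QKI cells, against 59.0 and 18.7 RPKM in sh-Ctrl cells. Its differences had opposite signs, -0.11 within replicate 1 and 0.33 within replicate 2, and its partner subunit *FARSB* had -0.13 and -0.05. *QARS*, which charges glutamine, had 0.13 and 0.26, *HARS*, which charges histidine, 0.08 and 0.27, and *MARS2* 0.10 and 0.32. *NARS* was the only one of the 8 that was lower in sh-QKI cells, at -0.05 and -0.20. *HARS* and *HARS2* lie head to head on chromosome 5 and their annotated ends overlap (hg19, chr5:140052620-140071122 and chr5:140071015-140078890), so that reads in the shared bases cannot be told apart where counting ignored strand. *HARS2* had 0.14 and -0.06.

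The 8 genes of the multi-synthetase complex (*DARS*, *EPRS*, *IARS*, *KARS*, *LARS*, *MARS*, *QARS* and *RARS*) had a median of 0.04 on the log2 scale, and 8 of 8 were above 0, though median centring turned *DARS*, *IARS* and *KARS* below 0, while the 13 other cytosolic genes had a median of 0.02, with 8 of 13 above 0. Within replicate 1 the medians were 0.07 in the complex and -0.05 outside it. Within replicate 2 they were 0.02 and 0.08, so that the order of these groups turned round between the numbers. The scaffold genes were also close to the control. *AIMP2* was at 24.4 and 18.2 RPKM in sh-QKI cells, against 26.1 and 15.5 RPKM in sh-Ctrl cells. *AIMP1* was at 8.70 and 13.0 RPKM in sh-QKI cells, against 7.81 and 12.7 RPKM in sh-Ctrl cells. *EEF1E1* was at 12.6 and 12.7 RPKM in sh-QKI cells, against 10.8 and 12.3 RPKM in sh-Ctrl cells, with a block log2 fold change of 0.12 (adjusted p = 1.00). It was the only scaffold gene of which both sh-QKI libraries were above both sh-Ctrl libraries, as were 5.71% of all tested genes.

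The cytosolic genes with and without the composite core were set side by side, with no test of the difference. The 6 genes whose windows are printed above had median differences of -0.04 within replicate 1 and -0.01 within replicate 2. The 10 cytosolic genes with a promoter entry but no exact match had 0.01 and 0.07. These 10 are not known to lack the element, so the comparison does not separate ATF4 targets from other genes. Of the 6 genes with the core, 0 were higher in sh-QKI cells within both numbers, and of the 10 without it, 3 were. Over all tested genes this share was 31.7%. *ATF4* itself was at 75.8 and 89.1 RPKM in sh-QKI replicates 1 and 2, against 78.1 and 86.2 RPKM in sh-Ctrl replicates 1 and 2, and its groups overlapped. Of 31 amino acid response genes, 0 were called without or with the block, against 0% and 0.854% of all tested genes. Their median log2 fold change was 0.01. The most abundant of these were *SLC7A5*, a leucine transporter (197 and 124 RPKM in sh-QKI cells, against 212 and 113 RPKM in sh-Ctrl cells), and *SHMT2*, a mitochondrial enzyme of serine and glycine metabolism (99.2 and 82.5 RPKM in sh-QKI cells, against 96.2 and 69.6 RPKM in sh-Ctrl cells).

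QKI binds RNA at elements with the core ACTAAC or ACTAAT. On the sense strand of 1 annotated transcript per gene (GENCODE, GRCh37), at least 1 such core was found in 10 of the 37 synthetase genes (27.0%), 7 cytosolic and 3 mitochondrial, against 5487 of the 11418 tested genes with a transcript (48.1%). Per kilobase of transcript, the synthetase genes held 0.131 cores and the tested genes 0.248. Only spliced transcripts were searched, and introns, in which the paper also maps QKI motifs, were not. The synthetase transcripts had a median length of 2737 bases and a median coding length of 1791. For the tested genes these were 3321 and 1389 bases, and the part of this in the shares was not tested. *FARSB* held the most, with 3 cores, all in the 3′ UTR and within the windows below (5′ to 3′ on the minus strand of chromosome 2, GRCh37, core in capitals), which are shown because no other synthetase transcript held as many.
FARSB at chr2:223433944-223433971: atgaaaaacccACTAATgcctaattgta
FARSB at chr2:223432875-223432902: tccctgaagtaACTAACtgctgttaaca
FARSB at chr2:223432139-223432166: tatataacatcACTAACcctaatacttg

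*FARSB* was at 18.0 and 12.7 RPKM in sh-QKI replicates 1 and 2, against 19.9 and 13.1 RPKM in sh-Ctrl replicates 1 and 2, lower within both numbers by less than the SD of all tested genes. Over the 10 genes with a core (among them *AARS*, *FARSB*, *LARS*, *MARS*, *NARS* and *MARS2*) the median difference was -0.02 within replicate 1 and 0.00 within replicate 2, against 0.02 and 0.08 over the 27 genes without one. The 2 sets also differed in the median G and C content of the transcript, 43.8% with a core and 50.7% without, and its part was not tested. A gene total in RPKM does not resolve splicing, so that changes in the exons used would not be seen in these values.

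The replicate numbers separated the libraries far more than the knockdown did. With the group as a term, limma called 28 of the 37 synthetase genes between replicate 2 and replicate 1, against 70.9% of all tested genes. Of these, 25 were lower in replicate 2 (15 cytosolic and 10 mitochondrial), against 35.7% of all tested genes, and 3 were higher, against 35.2%. The synthetase genes thus leaned to one side of a difference that, over all tested genes, was balanced, with a median of -0.50 for the cytosolic and -0.38 for the mitochondrial genes, against 0.00 over all tested genes. Both libraries numbered 2 were below both numbered 1 in 28 genes, against 43% of all tested genes, and above them in the other 9, against 43.1%.

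*VARS*, the cytosolic valyl-tRNA synthetase, had the largest such difference. It was at 7.96 and 7.06 RPKM in the sh-QKI and sh-Ctrl libraries numbered 2, against 31.5 and 33.6 RPKM in those numbered 1, a log2 difference of -2.05 (SE 0.12, adjusted p = 2.93e-62). *FARSA* had a log2 difference of -1.41 (SE 0.12, adjusted p = 1.04e-32) and *CARS2* one of -1.19 (SE 0.14, adjusted p = 1.81e-17). These p-values use a spread shared over all tested genes, and their size depends on which genes are tested. Without the expression limit these log2 differences were the same, and the limma adjusted p were 0.000283 (*VARS*), 0.00046 (*FARSA*) and 0.000705 (*CARS2*). *MARS* was at 28.2 and 24.6 RPKM in the sh-QKI and sh-Ctrl libraries numbered 2, against 49.999 and 51.2 RPKM in those numbered 1. The genes higher in replicate 2 included *IARS2* (0.32, SE 0.12, adjusted p = 0.00839) and *EPRS*, the fused glutamyl- and prolyl-tRNA synthetase of the complex (0.26, SE 0.12, adjusted p = 0.0332), and the call of *EPRS* was lost without the expression limit (adjusted p = 0.0694). *EPRS* and *IARS2* are close neighbours on chromosome 1 (hg19, chr1:220141942-220219872 and chr1:220267474-220321383). The genes of the complex had a median of -0.23, against -0.53 for the other cytosolic genes.

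The difference between the numbers had the same order of genes in both groups. Over the 37 genes, replicate 2 minus replicate 1 in sh-QKI cells and in sh-Ctrl cells had a Pearson's r of 0.972, and over all 11829 tested genes one of 0.953, a description across genes that share libraries. It also ran with the G and C content of the transcript. The r with G and C content over the 37 genes was -0.82 in sh-QKI and -0.84 in sh-Ctrl cells, and over 11418 tested genes -0.64 and -0.73. The 8 genes with the least G and C (38.1% to 42.4%) had median differences of 0.11 in sh-QKI and 0.23 in sh-Ctrl cells, and the 8 with the most (54.0% to 61.7%) had -0.79 and -0.97. *VARS* and *FARSA*, at 61.7% and 61.3%, are the synthetase transcripts with the most G and C, and *DARS*, at 38.1%, is the one with the least.

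**Figure D4:**
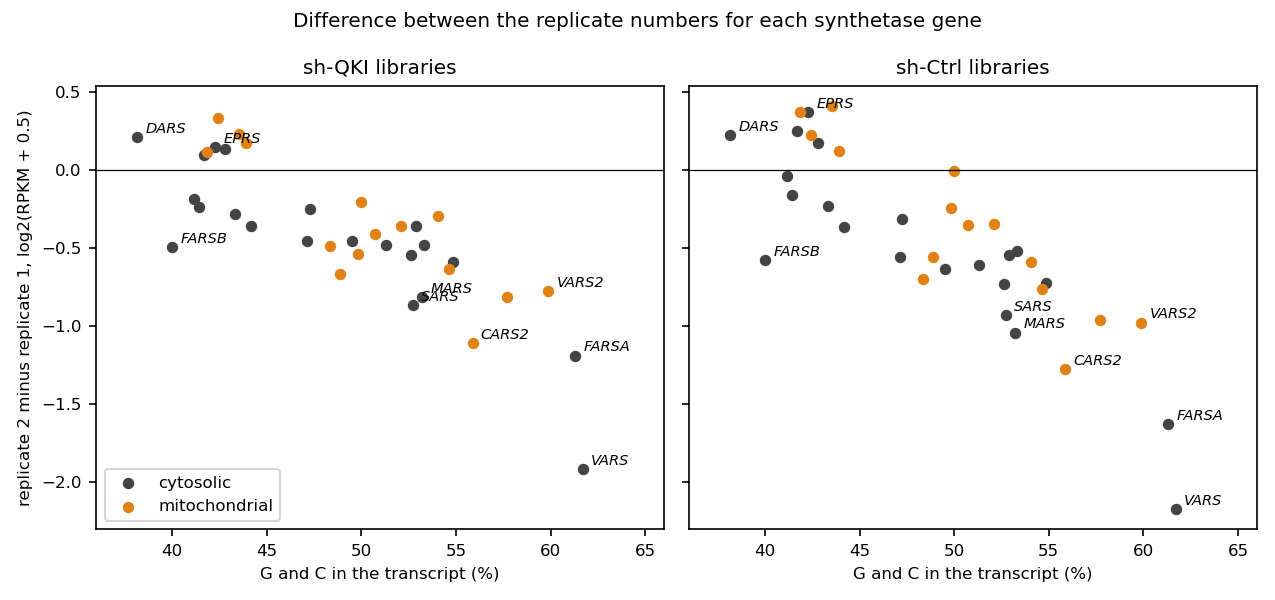
Difference between the replicate numbers, replicate 2 minus replicate 1 on log2(RPKM + 0.5), against the G and C content of the transcript for each synthetase gene, in sh-QKI (left) and sh-Ctrl libraries (right), with 1 of the 37 genes not drawn; grey points are cytosolic and orange points mitochondrial genes. The points fall towards the right, to *VARS* at -1.92 in sh-QKI and -2.18 in sh-Ctrl cells.

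The fall of high G and C genes was larger in sh-Ctrl than in sh-QKI cells, so that the comparison of the groups within a number ran with G and C content as well. Over the 37 genes the r of the sh-QKI minus sh-Ctrl difference with G and C content was -0.28 within replicate 1 and 0.61 within replicate 2, and over 11418 tested genes -0.36 and 0.48. The 8 genes with the most G and C had a median difference of -0.06 within replicate 1 and 0.20 within replicate 2, and the 8 with the least had 0.06 and -0.02. Of the 8 genes with the most G and C, 5 (*FARSA*, *VARS2*, *QARS*, *TARS2* and *PARS2*) are also among the 8 that differed by 0.2 or more within replicate 2. The part of G and C content in any of these differences was not tested.

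Other genes that make or use charged tRNA were likewise not called between sh-QKI and sh-Ctrl cells, with the block or without it. Over all tested genes 0.854% were called with the block and 0% without it. Among these lists there were 0 calls in 4 genes of mitochondrial glutaminyl-tRNA amidation and methionine formylation (median log2 fold change 0.14), 6 of 7 genes of editing and deacylation that were tested (0.08), 10 elongation factor genes (0.10) and 23 genes of tRNA maturation (0.06), of which 1, in the last list, had an unadjusted p under 0.05 with the block. That list held *TSEN54*, a subunit of the tRNA splicing endonuclease, at 18.1 and 11.6 RPKM in sh-QKI replicates 1 and 2, against 14.5 and 8.99 RPKM in sh-Ctrl replicates 1 and 2. It was higher in sh-QKI cells within both numbers, by 0.31 and 0.35, and did not pass the test (block log2 fold change 0.33, adjusted p = 0.293). *EEF2*, the elongation factor of ribosome translocation, was the most abundant of these genes, at 900 and 361 RPKM in sh-QKI cells, against 918 and 289 RPKM in sh-Ctrl cells. *EEF1G*, a subunit of the nucleotide exchange factor of EEF1A, was at 149 and 111 RPKM in sh-QKI cells, against 186 and 93.1 RPKM in sh-Ctrl cells, with opposite signs of -0.31 and 0.25 within the numbers. *ELAC1* and *RPP25* also had differences of 0.2 or more with opposite signs.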

How the data were processed

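The deposited RPKM were computed by the authors from single-end Illumina reads of TruSeq libraries, sequenced in runs of different read lengths that no source ties to a replicate number, aligned with Bowtie to hg19 and Ensembl exon junctions, without ambiguous reads. Unlisted genes were set to 0. Whole reads were recovered for 100% of 61702 values (relative tolerance 1e-11); summed over genes they were 1.35 to 1.53 times the totals that the authors divided by.

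log2(RPKM + 0.5) was tested with limma 3.58.1 (R 4.3.3, mean-variance trend, two-sided, Benjamini-Hochberg over the 11829 genes whose mean reached 0.5 RPKM), without a block, with the replicate number as a block, and between the numbers with the group as a term; the procedure was tested on simulated data. Other pseudocounts, limits, scalings, left-out libraries and, added after seeing the data, voom were tried. Python 3.11.15 was used for the rest. The GENCODE annotation lifted to GRCh37 gave a transcript for 11418 tested genes (96.5%); promoters are from RefSeq.

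Members, gene lists and tests were chosen with earlier results of these data known. Genes were named by rule: the 5 highest cytosolic, 3 highest mitochondrial and 2 lowest of each by mean RPKM; genes called or differing by at least 0.2 within both numbers; *QKI*; and, of the lists, such genes and up to 3 of the highest. Some genes that the rule names are not reported here. Same-numbered libraries deviated together (correlation 0.953 over tested genes), but with 2 pairs and no shared culture given, the number is not a known pairing.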

Additional observations from a re-analysis of the deposited data

How the results depend on the processing

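No synthetase gene was called between sh-QKI and sh-Ctrl cells under any setting that was run. Over all tested genes 0 were called without a block, 101 with the replicate block, 114 with the replicate block and median centring, and 137 with voom on recovered reads and the replicate block, while leaving out 1 library in turn gave 0 to 3. For each left-out library the remaining one of its group is assumed to vary like the other group, and an unequal balance of replicate numbers then enters the difference. The median log2 fold change then ran from -0.19 to 0.22 for the cytosolic and from -0.09 to 0.32 for the mitochondrial genes, and it was -0.01 and 0.08 with median centring. The single genes ran from -0.81 to 0.47 (*CARS2*), -0.19 to 0.54 (*HARS*), -0.17 to 0.56 (*QARS*), -0.14 to 0.56 (*MARS2*), -0.055 to 0.48 (*YARS2*), 0.02 to 0.40 (*RARS2*), -0.25 to -0.0016 (*NARS*) and -0.19 to -0.0094 (*NARS2*). Signs were reversed without sh-Ctrl replicate 2 in *HARS* (-0.19), *QARS* (-0.17) and *MARS2* (-0.14), without sh-QKI replicate 1 in *HARS* (-0.096), *QARS* (-0.10), *MARS2* (-0.031) and *YARS2* (-0.055), and in *CARS2* without sh-Ctrl replicate 1 (0.47) or sh-QKI replicate 2 (0.38). Median centring turned the sign of 7 genes near 0 (*KARS*, *IARS*, *YARS*, *DARS*, *CARS*, *TARSL2* and *FARS2*). Between the numbers, 13 cytosolic and 10 mitochondrial genes were called without the expression limit and 16 and 11 with voom, against 16 and 12 in the fit described above. Over all genes, 8528 of 16708 were called without the limit and 8327 of 11829 with voom, against 8383 of 11829 (70.9%). The call of *EPRS* was lost without the limit (adjusted p = 0.0694). With a library left out, the comparison of the numbers with the group as a term leaves no residual degree of freedom, and a fit of the number alone was not run. The planned quasi-likelihood tests on recovered reads were not run, because the deposited unit is RPKM. Depth, at 146 to 15951 recovered reads per gene and library, limits most the genes with the fewest reads.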
